A study of Mus musculus with 4 samples.

Results

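Open chromatin was described at 8 genes known from regulatory T cells, Foxp3, Lrrc32, Il10, Nrp1, Itgae, Gpr83, Ebi3 and Capg. Peaks of the 4 deposited lists that overlapped by at least 1 bp were merged into 97394 regions, and the members are the 84 regions whose nearest protein-coding gene, within 100 kb of the region's midpoint, is one of these 8. Of the 84, Nrp1 had 45, Il10 13, Itgae 8, Lrrc32 6, Capg 5, Gpr83 4, Foxp3 2 and Ebi3 1. A region inside 2 genes counted for both: the Ebi3 region also lies in Zfp119b, and 1 Itgae region also lies in Haspin.

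The data are ATAC-seq peak lists, 1 per library, from mouse CD4 T cells of the tumor-draining lymph node. ATAC-seq cuts and tags open DNA with a transposase. The cells carried the TCRSMARTA transgene, which encodes a T cell receptor specific for GP61, and were transferred as naive cells into cytoxan-treated mice bearing B16-GP61 melanoma, which expresses the peptide. They were sorted on day 11. The TOX KO libraries, KO-1 and KO-2, came from Ly5.1+ Ly5.2- cells with low PD1, LAG3 and CD39. The TOX WT libraries, WT-1 and WT-2, came from Ly5.1+ Ly5.2+ cells with high PD1, LAG3 and CD39. Genotype, congenic marker and gate therefore cannot be told apart, and the labels give neither the deleted part of Tox nor whether libraries came from separate animals, so the spread between libraries may be technical. An exact two-sided permutation test of 2 libraries against 2 cannot give a p below 0.33.

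Regulatory T cells are CD4 T cells that restrain immune responses and depend on the transcription factor FOXP3, which is controlled by its promoter and by conserved enhancers in its first introns. Several of the other members act at the cell surface or as secreted mediators of suppression, but most are not unique to regulatory T cells. IL-10, for instance, is also made by activated Th1 cells, by B cells and by myeloid cells.

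The lists held 43078 and 61773 peaks in KO-1 and KO-2, against 56852 and 61489 in WT-1 and WT-2; KO-1 had the fewest, and read depth is unknown. The only region over the upper-coordinate end of Tox (GRCm38, chromosome 4, 6990165 to 6991572) had no peak in either KO library and fold enrichments of 6.57 and 7.12 in WT-1 and WT-2. CD4 T cell markers had a region at 10 of 10 genes, with a peak at 65 and 88 of 110 regions in KO-1 and KO-2 and at 63 and 63 in WT-1 and WT-2, so the labelled cell type had its marker genes open in every library. B cell markers had more peaks in the WT libraries: 11 and 19 of 125 regions had one in KO-1 and KO-2, against 95 and 103 in WT-1 and WT-2. Ebf1 had a peak at 2 and 3 of 32 regions in KO-1 and KO-2, against 23 and 27 in WT-1 and WT-2. For Bank1 it was 0 and 2 of 23 in KO-1 and KO-2, against 17 and 19 in WT-1 and WT-2. Myeloid and dendritic cell markers had a peak at 19 and 30 of 69 regions in KO-1 and KO-2, against 47 and 55 in WT-1 and WT-2. Whether other cell types were present was not tested. In bulk samples, fewer cells with an open site and a less open site per cell cannot be told apart.

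RefSeq promoter windows (GRCm38.p6, 250 bases before to 50 after a start) were held for Foxp3, which has 2, and for Nrp1, Gpr83, Ebi3 and Capg, all on the plus strand. A peak in all 4 libraries overlapped the windows of Nrp1 and Gpr83, and 46.8% of 21045 windows of protein-coding genes. The Ebi3 window was overlapped in every library except KO-1, the Capg window in WT-2 alone, and neither Foxp3 window by any peak, as for 45.8% of all windows. The Capg window (72549397 to 72549696) lies well inside the gene, whose lower-coordinate end is at 72538282. The Capg region nearest that end (72538408 to 72539281) had a peak in all 4 libraries. The windows of Foxp3 and Ebi3, which lacked a peak in every library or in 1, are printed with that of Gpr83, which had one in every library. Capitals mark matches, on either strand, to the letters searched.
Foxp3, first start, chrX:7579426-7579725, plus strand: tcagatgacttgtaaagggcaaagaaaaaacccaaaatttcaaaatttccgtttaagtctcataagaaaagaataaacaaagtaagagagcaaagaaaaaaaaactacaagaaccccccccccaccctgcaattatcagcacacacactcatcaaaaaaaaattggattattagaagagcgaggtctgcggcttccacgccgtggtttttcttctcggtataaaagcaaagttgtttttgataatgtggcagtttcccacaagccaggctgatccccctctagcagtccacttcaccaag
Foxp3, second start, chrX:7580233-7580532, plus strand: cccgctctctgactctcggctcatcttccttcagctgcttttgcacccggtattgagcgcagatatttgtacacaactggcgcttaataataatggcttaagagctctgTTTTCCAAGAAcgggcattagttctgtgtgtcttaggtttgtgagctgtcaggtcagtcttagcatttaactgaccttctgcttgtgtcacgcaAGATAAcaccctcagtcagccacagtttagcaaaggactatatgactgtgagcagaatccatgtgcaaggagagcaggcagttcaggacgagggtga
Ebi3, chr17:55952373-55952672, plus strand: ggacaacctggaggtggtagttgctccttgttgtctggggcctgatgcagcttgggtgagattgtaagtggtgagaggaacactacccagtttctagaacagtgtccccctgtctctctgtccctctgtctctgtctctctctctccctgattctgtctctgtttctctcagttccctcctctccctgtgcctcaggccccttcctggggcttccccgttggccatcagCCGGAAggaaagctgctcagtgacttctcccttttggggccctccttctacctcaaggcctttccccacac
Gpr83, chr9:14859960-14860259, plus strand: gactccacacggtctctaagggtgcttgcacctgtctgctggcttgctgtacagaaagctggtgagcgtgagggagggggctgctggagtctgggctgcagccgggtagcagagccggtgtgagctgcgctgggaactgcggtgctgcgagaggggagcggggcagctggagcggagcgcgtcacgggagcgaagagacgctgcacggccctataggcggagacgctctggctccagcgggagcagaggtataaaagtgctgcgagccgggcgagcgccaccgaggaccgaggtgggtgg

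The windows differed in base composition. G and C made up 40.7% and 47.7% of the 2 Foxp3 windows, with 6 and 8 CpG dinucleotides, and 67.0% of the Gpr83 window, with 24. The Nrp1 window had 64.0% and 14 CpG, the Capg window 58.0% and 7, and the Ebi3 window 56.3% but 2 CpG. Over all windows, the median was 62.3% and 23 CpG where every library had a peak, against 49.3% and 4 where none had. In the second Foxp3 window the NFAT letters, GGAAAA, overlapped the STAT letters, TTCNNNGAA. The first occurred in 22.3% and the second in 7.76% of all windows. The GATA letters, AGATAA, also stood there and in 9.68% of all windows. The ETS letters CCGGAA stood in the Ebi3 window and in 18.9% of all windows. Forkhead letters, GTAAACA, occurred in 3.03% of all windows and in none of these 6. The same held for RUNX letters, ACCACA, which 14.7% of all windows held. AP-1 letters, TGANTCA, were in 7.04% of all windows and in none of the 6, and CRE letters, TGACGTCA, in 2.26% and again in none of the 6. A match is a description of letters, not a bound site.

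Over the 84 regions, the number with a peak did not separate the genotypes. A peak stood at 45 and 67 regions in KO-1 and KO-2, against 56 and 55 in WT-1 and WT-2, where 40.9% and 60.0% of all regions had a peak in KO-1 and KO-2, against 54.4% and 60.2% in WT-1 and WT-2. The KO libraries lay on either side of the WT libraries, and the means, 56 ± 15.6 in KO and 55.5 ± 0.707 in WT (SD, n = 2 each), differed by less than the KO spread (exact two-sided permutation p = 1). KO-only regions, with a peak in both KO and neither WT library, numbered 4 of 84, or 4.76%, where 1.78% of all regions were KO-only. WT-only regions, the reverse, also numbered 4, or 4.76%, where 8.80% of all regions were WT-only. All 8 lay at Nrp1 and Lrrc32. A peak in all 4 libraries was present at 35 regions, 41.7% against 27.6% of all regions, and a peak in 1 library at 25, 29.8% against 48.4%, of which 4 and 13 were in KO-1 or KO-2 alone, against 3 and 5 in WT-1 or WT-2 alone. Over all regions these shares were 7.68% and 18.8% for KO-1 and KO-2, against 8.96% and 13.0% for WT-1 and WT-2. The direction of the difference in means turned with the settings. Without KO-2 it was −10.5 and without WT-2 −2, and with peaks at a −log10 q of at least 5 it was −1.5. Without KO-1 it was 11.5. With every list cut to the length of the shortest it was 7, with means of 49.5 in KO and 42.5 in WT (exact two-sided permutation p = 0.667).

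**Figure D1:**
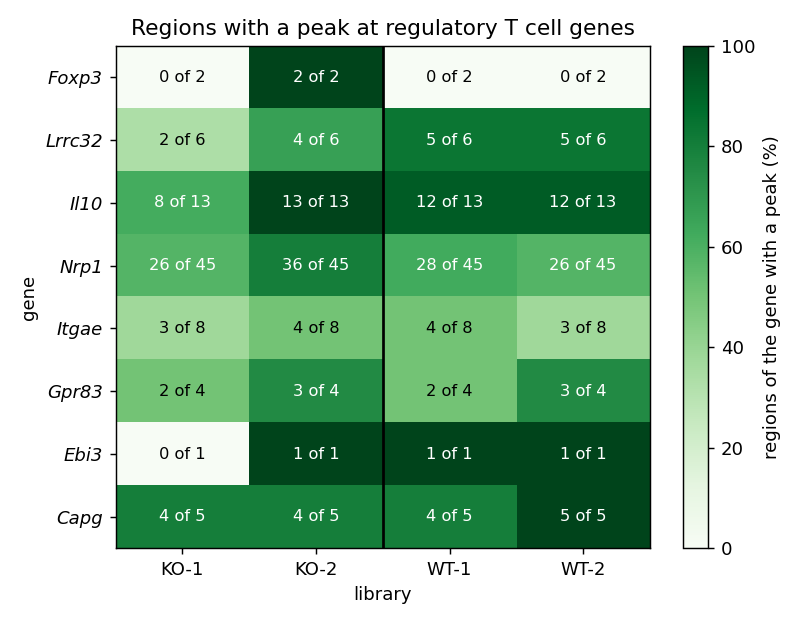
Number of regions with a peak at each of the 8 genes (rows) in each KO and WT library (columns), coloured by the percent of the gene's regions. Foxp3 has peaks in KO-2 alone, and Lrrc32 has 2 and 4 of 6 in the KO libraries against 5 of 6 in each WT library.

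Foxp3, on the X chromosome at 7579676 to 7595243, had peaks in 1 library of 4. KO-2 had a peak at 7586606 to 7586784 and another at 7586839 to 7587066, inside the gene and 7.02 and 7.28 kb above its lower-coordinate end, where transcription starts. Their fold enrichments were 3.96 and 3.03, at the 45.9 and 13.8 percentile of that list, and the other 3 libraries had no peak there. Their −log10 q values were 4.77 and 2.19, so that with peaks of at least 5 no library had a peak at Foxp3. The percentile is the rank of a peak's fold enrichment among all peaks of its library, in percent, with ties averaged. On each side of Foxp3, a region nearest to another gene had a peak in every library. The region beside Ppp1r3f, the gene below Foxp3 (7573783 to 7574979), stood at the 86.9 and 91.6 percentile in KO-1 and KO-2 and the 91.8 and 89.6 percentile in WT-1 and WT-2. The region beside Ccdc22, a gene whose interval overlaps that of Foxp3 (7605107 to 7605827), stood at 77.9 and 92.5 in KO-1 and KO-2, against 88.0 and 92.3 in WT-1 and WT-2. Peaks in KO-2 alone also lay at 2 places inside Ppp1r3f, at the 13.8 and 5.77 percentile, and 18.8% of all regions had a peak in KO-2 alone. Further above, a region inside Cacna1f, a calcium channel gene (7617990 to 7618573), was ranked higher in KO-1 and KO-2, at 59.96 and 84.5, than in WT-1 and WT-2, at 45.4 and 46.2.

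**Figure D2:**
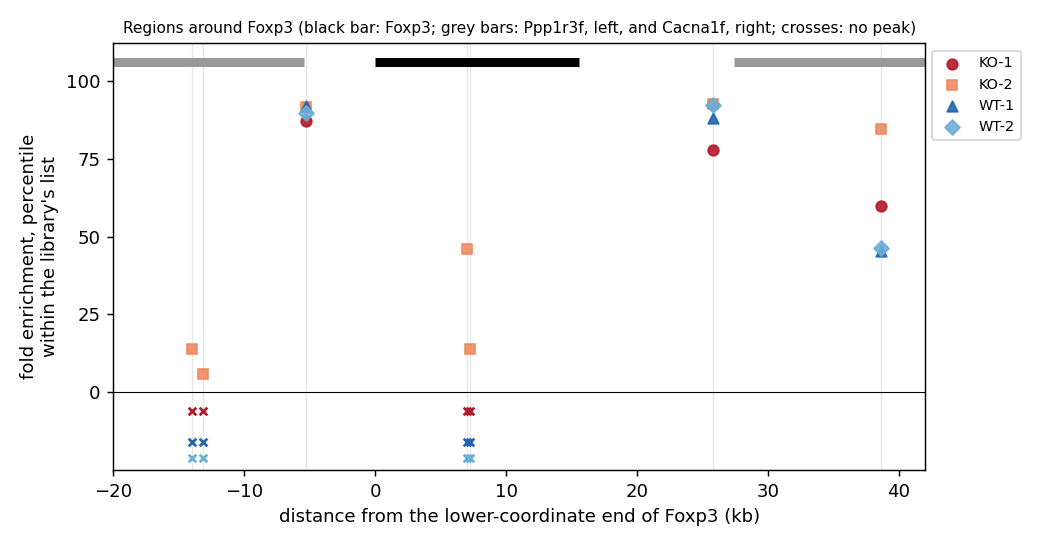
Percentile of fold enrichment (vertical axis) of each region around Foxp3 against distance from its lower-coordinate end in kb (horizontal axis), with a colour for each KO and WT library; crosses below 0 mark libraries without a peak. The 2 regions inside Foxp3 have a peak in KO-2 alone, while the regions on either side, at −5.30 and 25.8 kb, have one in every library.

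At Il10, the gene of the anti-inflammatory cytokine IL-10, the same stretch of chromatin was open in both genotypes but its elements were ranked differently. Il10 (chromosome 1, 131019845 to 131024970) had 13 regions, none of them KO-only or WT-only, and 8 had a peak in all 4 libraries. Peaks numbered 8 and 13 in KO-1 and KO-2, against 12 and 12 in WT-1 and WT-2, 10.5 ± 3.54 in KO and 12 ± 0 in WT (SD, n = 2 each, exact two-sided permutation p = 1). Without KO-1 the difference was 1, against −1.5 with it. No region overlapped either end of the gene. Of the 8 shared regions, both KO percentiles lay above both WT percentiles at 4, and both WT above both KO at 2, where 16.5% and 25.9% of all shared regions were so ordered.

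The region 16.4 kb below Il10 (131003089 to 131003755) was ranked far lower in KO. Its fold enrichment was 3.25 and 2.48 in KO-1 and KO-2, against 7.15 and 7.18 in WT-1 and WT-2, and its percentile 38.5 and 1.68 in KO-1 and KO-2, against 75.8 and 77.2 in WT-1 and WT-2. Both KO libraries lay below both WT libraries. The means, 20.1 ± 26.1 in KO and 76.5 ± 0.997 in WT (SD, n = 2 each), differed by −56.4 percentage points, and 0.101% of the 26867 regions with a peak in all 4 libraries had a difference as low.

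The next shared region below it showed the opposite order. At 20.2 kb below the gene (130999411 to 130999977) the fold enrichment was 4.38 and 8.89 in KO-1 and KO-2, against 2.93 and 2.72 in WT-1 and WT-2. The percentiles were 60.7 and 79.0 in KO-1 and KO-2, against 23.5 and 20.2 in WT-1 and WT-2, with no overlap. The difference of 48.0 points was reached by 0.253% of shared regions. Another such site lay 1.12 kb above the gene (131025803 to 131026371), at the 66.8 and 73.0 percentile in KO-1 and KO-2, against 25.1 and 38.6 in WT-1 and WT-2, a difference of 38.0 points reached by 0.986% of shared regions.

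The strongest Il10 regions differed by fewer points. The one 25.9 kb below the gene (130993485 to 130994310) stood at 86.0 and 95.5 in KO-1 and KO-2, against 82.8 and 85.7 in WT-1 and WT-2, with no overlap. The one 9.17 kb below (131010233 to 131011110) stood at 81.7 and 92.9 in KO-1 and KO-2 and at 74.9 and 85.2 in WT-1 and WT-2, and there the libraries of the genotypes interleaved. The 3 regions inside the gene were weaker. The first (131020557 to 131021343) stood at 19.9 and 38.4 in KO-1 and KO-2 and at 33.8 and 51.3 in WT-1 and WT-2. Ranks were also taken among the regions shared by the 4 libraries, which gives the lists equal length. The orders of the regions at 16.4 kb and 20.2 kb below and 1.12 kb above the gene were the same, at 15.7 and 0.331, 39.0 and 52.4, and 47.7 and 40.3 in KO-1 and KO-2, against 52.7 and 52.0, 4.50 and 2.84, and 5.11 and 8.60 in WT-1 and WT-2. By these ranks the KO libraries also lay above the WT libraries at both of the strongest regions. The one 25.9 kb below the gene stood at 77.5 and 89.6 in KO-1 and KO-2, against 65.1 and 68.4 in WT-1 and WT-2, a difference of 16.8 points. The one 9.17 kb below stood at 70.7 and 83.6 in KO-1 and KO-2, against 51.3 and 67.4 in WT-1 and WT-2, a difference of 17.8 points. B cells and myeloid cells also make IL-10, and their markers had more peaks in WT libraries, as given above; their part in these ranks was not tested.

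Lrrc32 encodes GARP, which holds latent TGF-beta on the surface of activated regulatory T cells. The gene (chromosome 7, 98489305 to 98501831) had a peak at 2 and 4 of 6 regions in KO-1 and KO-2, against 5 and 5 in WT-1 and WT-2. Both KO libraries had fewer than both WT libraries, 3 ± 1.41 against 5 ± 0 (SD, n = 2 each), and the exact two-sided permutation p of 0.333 is the smallest that this design allows. With lists of equal length the difference was −1, with means of 3 in KO and 4 in WT (exact two-sided permutation p = 1). With 1 library left out it lay between −4 and −1, and without WT-1 it was −2 (exact permutation p = 0.667). Next to each other at its lower-coordinate end, 58 bp apart, were a pair of regions with opposite orders. The one across the end (98488168 to 98489419) had no peak in KO-1 and had 3.60-fold enrichment in KO-2, against 6.36 and 7.03 in WT-1 and WT-2. The one just inside (98489478 to 98490213) had 3.96 and 7.32 in KO-1 and KO-2, against 3.02 and 3.27 in WT-1 and WT-2, at the 55.4 and 73.1 percentile in KO-1 and KO-2, against 24.7 and 38.6 in WT-1 and WT-2. Its difference of 32.6 points was reached by 1.76% of shared regions.

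Both WT-only regions of Lrrc32 lay outside the gene. At 2.61 kb below (98486493 to 98486897) the WT percentiles were 1.32 and 3.42, near the bottom of the lists. At 21.0 kb above (98522645 to 98523041) they were 35.6 and 54.8. A wider region 32.6 kb above (98533902 to 98535028), open in every library, was lower in KO, at 50.7 and 54.0 in KO-1 and KO-2, against 64.3 and 64.7 in WT-1 and WT-2. Its difference was −12.2 points, and 14.1% of shared regions had a difference as low.

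**Figure D3:**
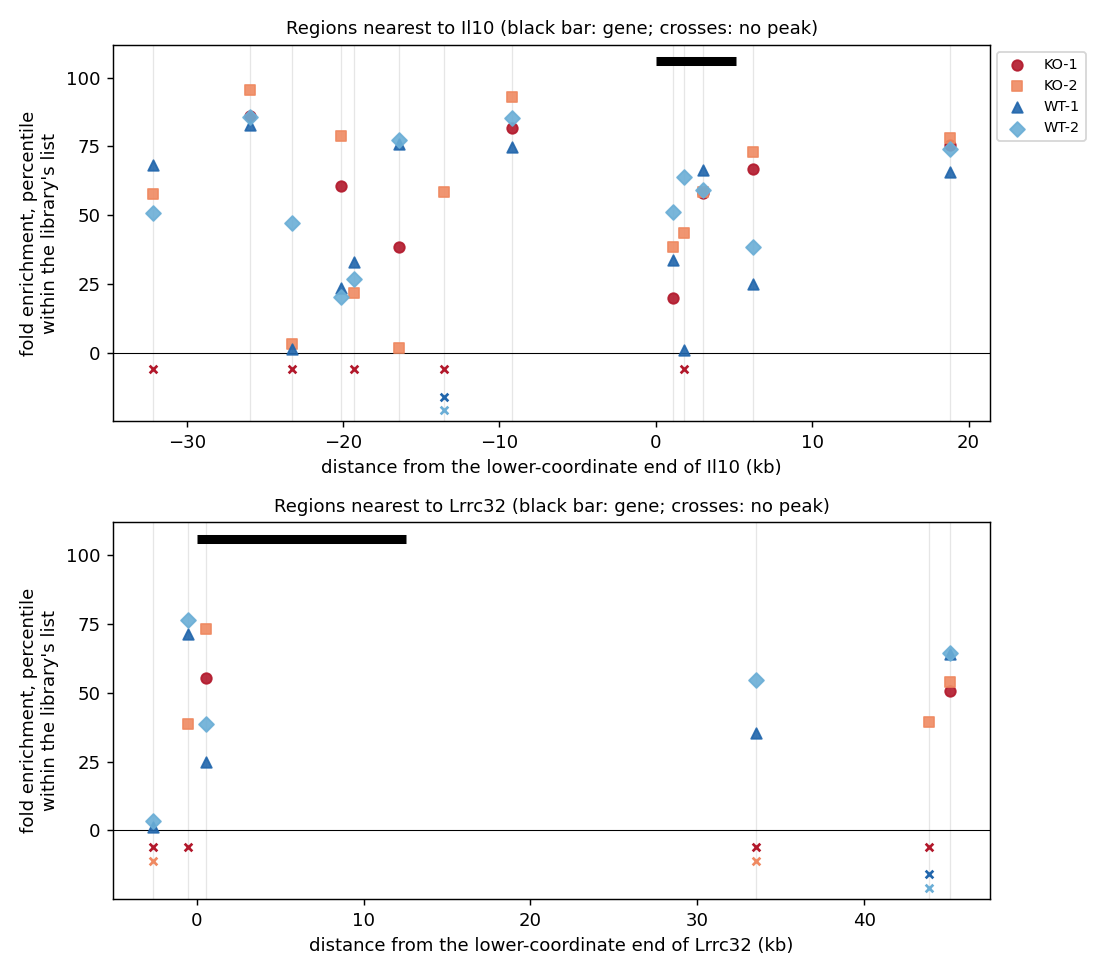
Percentile of fold enrichment (vertical axis) of the 13 Il10 regions (upper panel) and the 6 Lrrc32 regions (lower panel) against distance from the gene's lower-coordinate end in kb, with a colour for each KO and WT library; crosses mark libraries without a peak. At Il10 the WT points are above the KO points at −16.4 kb and below them at −20.2 kb and 6.24 kb, and at Lrrc32 the regions next to the gene's lower end have opposite orders.

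Nrp1, a receptor for semaphorins and VEGF that marks thymus-derived regulatory T cells in mice, carried every KO-only region of the group. It is a long gene (146.9 kb, chromosome 8, 128358591 to 128505476) with 45 regions, more than 99.6% of the 16663 genes with any region, and 17 of its regions had a peak in all 4 libraries. Peaks numbered 26 and 36 in KO-1 and KO-2, against 28 and 26 in WT-1 and WT-2, 31 ± 7.07 in KO and 27 ± 1.41 in WT (SD, n = 2 each, exact two-sided permutation p = 1). KO-1 shared its number with WT-2, and without KO-2 the difference was −1, against 4 with it. With lists of equal length it was 8.5, with means of 28 in KO and 19.5 in WT, and both KO libraries then had more than both WT libraries (exact two-sided permutation p = 0.333).

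The 4 KO-only regions, 8.89% of those at Nrp1, had weak or middling peaks. The one with the highest rank lay inside the gene, 32.7 kb from its start (128390944 to 128391730), with fold enrichments of 2.79 and 4.92 in KO-1 and KO-2, at the 19.2 and 57.9 percentile. The others stood 13.1 kb below the gene (128345314 to 128345710, percentiles 26.0 and 45.9 in KO-1 and KO-2), inside it at 128484663 to 128484994 (3.42 and 4.49) and 20.6 kb above it (128525957 to 128526197, 8.64 and 51.4). Over all genes, 21 had 4 or more KO-only regions. The −log10 q values of these 4 regions in KO-1 lay from 2.02 to 2.76, so none of them was KO-only with peaks of at least 5. With such peaks merged anew, 1 other region at the 8 genes was KO-only, and at a −log10 q of at least 10 there were 3. The 2 WT-only regions were weak as well, with percentiles of 1.24 and 2.36 in WT-1 and WT-2 at 1.22 kb below the gene (128357135 to 128357603) and of 14.9 and 8.92 at 94.4 kb below (128264106 to 128264326). The site at 94.4 kb was the farthest inside the 100 kb limit. The nearest region beyond it, at 135.3 kb, had a peak in WT-2 alone at the 17.2 percentile, and 12 regions nearest to Nrp1 lay beyond the limit.

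The start of Nrp1 was open in every library. The region over it (128358334 to 128359211) stood at the 42.2 and 67.3 percentile in KO-1 and KO-2 and at 62.6 and 71.0 in WT-1 and WT-2, and the libraries interleaved. By rank among shared regions they did not, at 18.2 and 30.5 in KO-1 and KO-2, against 33.5 and 41.3 in WT-1 and WT-2. Of the 17 shared regions, both KO percentiles lay above both WT percentiles at 5, both WT above both KO at 1, and 11 interleaved. These are 29.4% and 5.88%, where 16.5% and 25.9% of all shared regions were so ordered. By rank among shared regions the counts were 6 and 2 of 17, or 35.3% and 11.8%, where 22.0% and 24.0% of all were so ordered. The KO libraries led 5.55 kb below the start (128352753 to 128353329, 74.3 and 71.0 in KO-1 and KO-2, against 57.4 and 51.3 in WT-1 and WT-2) and in the distal part of the gene (128484118 to 128484611, 51.0 and 64.1 in KO-1 and KO-2, against 29.7 and 36.1 in WT-1 and WT-2). They also led at 3 more regions toward or beyond its upper end, among them 128516851 to 128518072, at 60.3 and 70.6 in KO-1 and KO-2, against 49.2 and 43.6 in WT-1 and WT-2. The WT libraries led 29.03 kb inside the gene (128387241 to 128388009), at 4.19 and 51.1 in KO-1 and KO-2, against 57.6 and 57.7 in WT-1 and WT-2. Of shared regions, 6.99%, 3.97% and 6.53% had a difference as high as the named KO-led regions, in that order. A difference as low as at the WT-led region was reached by 2.37%. The strongest Nrp1 region, 44.6 kb above the gene toward Itgb1 (128549573 to 128550500), did not separate the genotypes, at 85.1 and 90.5 in KO-1 and KO-2 and 90.7 and 88.8 in WT-1 and WT-2.

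**Figure D4:**
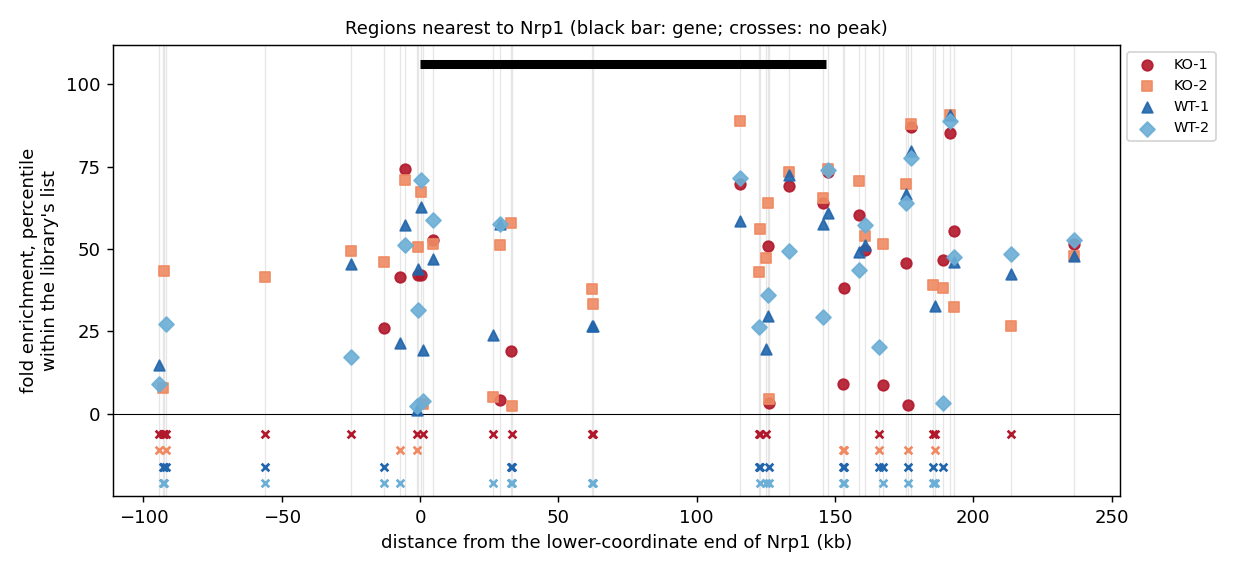
Percentile of fold enrichment (vertical axis) of the 45 Nrp1 regions against distance from the gene's lower-coordinate end in kb, with a colour for each KO and WT library; crosses mark libraries without a peak. The strongest region lies at 191.4 kb, beyond the upper end of the gene, and the 4 KO-only regions have percentiles from 3.42 to 57.9.

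At the remaining members the counts of peaks did not separate the genotypes. Itgae encodes CD103, the alpha chain of an integrin that binds E-cadherin. Its 8 regions (gene at chromosome 11, 73090505 to 73147449) had a peak at 3 and 4 in KO-1 and KO-2 and at 4 and 3 in WT-1 and WT-2, and 6 of them had a peak in 1 library. Its strongest region (73137582 to 73138675), at the 97.4 and 96.1 percentile in KO-1 and KO-2 and 95.4 and 97.3 in WT-1 and WT-2, also covers the end of Haspin, a kinase gene inside Itgae, and cannot be given to Itgae alone. The other shared region (73130972 to 73131372) stood at 69.0 and 64.8 in KO-1 and KO-2, against 63.8 and 62.6 in WT-1 and WT-2. These do not overlap, but the gap between KO-2 and WT-1 was smaller than that between the KO libraries. By rank among shared regions the libraries interleaved there, at 51.0 and 26.8 in KO-1 and KO-2 and 35.1 and 29.3 in WT-1 and WT-2.

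Capg, a capper of actin filaments that is also abundant in myeloid cells, had 4 and 4 of 5 regions with a peak in KO-1 and KO-2 and 4 and 5 in WT-1 and WT-2 (gene at chromosome 6, 72538282 to 72562983). Its strongest region (72538408 to 72539281) stood at 86.3 and 95.6 in KO-1 and KO-2 and at 93.3 and 95.02 in WT-1 and WT-2. The next (72552538 to 72553248) stood at 79.1 and 80.8 in KO-1 and KO-2 and at 81.8 and 78.4 in WT-1 and WT-2. By list percentile the genotypes interleaved at all 4 shared Capg regions, and by rank among shared regions both WT libraries lay above both KO libraries at 1.

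Gpr83, a G protein-coupled receptor enriched in regulatory T cells, had a peak at 2 and 3 of 4 regions in KO-1 and KO-2 and at 2 and 3 in WT-1 and WT-2 (gene at chromosome 9, 14859880 to 14870789). The region over its start (14859679 to 14860746), which holds the promoter window printed above, stood at 69.3 and 78.2 in KO-1 and KO-2 and at 74.4 and 65.4 in WT-1 and WT-2. The other shared Gpr83 region (14866908 to 14867425) stood at 58.0 and 70.6 in KO-1 and KO-2 and at 72.9 and 67.6 in WT-1 and WT-2. By rank among shared regions the libraries separated at both, in opposite orders. The start stood at 51.5 and 50.7 in KO-1 and KO-2, against 50.6 and 33.0 in WT-1 and WT-2. The other stood at 35.5 and 35.9 in KO-1 and KO-2, against 48.2 and 36.2 in WT-1 and WT-2. Ebi3, a subunit of the cytokines IL-27 and IL-35, had 1 region, across its start (chromosome 17, 55952276 to 55952996). It had no peak in KO-1 and stood at 47.4 in KO-2, against 49.3 and 39.6 in WT-1 and WT-2. A peak overlapped 48.3% and 50.3% of all promoter windows in KO-1 and KO-2, against 51.2% and 51.9% in WT-1 and WT-2.

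Among the 35 regions open in every library, both KO percentiles lay above both WT percentiles at 11, or 31.4%, where 16.5% of all such regions did so. Of these 11, 5 lay at Nrp1, 4 at Il10 and 1 each at Lrrc32 and Itgae, and Gpr83 and Capg had 0. Both WT percentiles lay above both KO at 4, or 11.4%, where 25.9% of all did so. Of these 4, 2 lay at Il10 and 1 each at Lrrc32 and Nrp1. The median of the differences per region, KO minus WT, was 0.383 points over the 35 and −1.35 over all 26867. With ranks taken among the shared regions alone the counts were 13 and 7 of 35, where 22.0% and 24.0% of all regions were called. The CD4 T cell markers leaned the same way, with 15 and 5 of 42 regions, or 35.7% and 11.9%, and the B cell markers the other way, with 0 and 7 of 8. By these counts the lean toward KO was thus also present at general T cell genes. Over the 42 CD4 T cell marker regions the median difference was 0.011 points. This lean in the counts was not present at every list given below. Partners, ligands and receptors of the members had 14 and 13 of 55 shared regions, or 25.5% and 23.6%. Genes near the members on the chromosome had 3 and 6 of 23, or 13.0% and 26.1%. By the per-library median of the 35, KO-1 and KO-2 stood at 60.7 and 70.6, against 62.6 and 62.6 in WT-1 and WT-2, so that the KO libraries enclosed the WT libraries (exact two-sided permutation p = 1). This order depended on the settings. Ranked among shared regions, the medians were 39.0 and 35.9 in KO-1 and KO-2, against 33.5 and 29.3 in WT-1 and WT-2, and both KO libraries lay above both WT libraries. They did so too with lists of equal length, where the means of the medians were 68.9 in KO and 63.9 in WT (exact two-sided permutation p = 0.333). The same medians over all shared regions were 68.3 and 77.9 in KO-1 and KO-2 and 74.1 and 76.0 in WT-1 and WT-2. The 35 regions had a median width of 711 bp, against 851 bp over all shared regions.

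**Figure D5:**
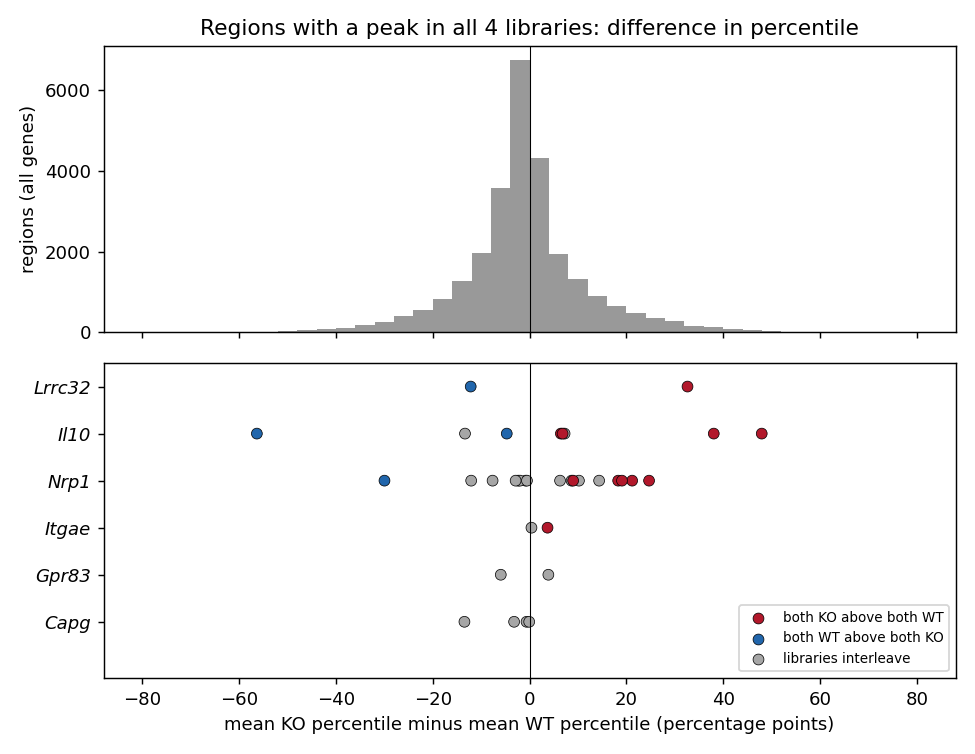
Upper panel: number of regions with a peak in all 4 libraries by the difference between the mean KO and mean WT percentile, in percentage points. Lower panel: the same difference for the 35 member regions by gene, coloured by whether the libraries separate; the Il10 regions at −56.4 and 48.0 are the farthest out on either side.

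Of 21 other surface and suppressor genes of regulatory T cells, all had a region, 2 had more KO-only and 10 more WT-only regions, and 9 had as many of each. The list held 5 KO-only and 24 WT-only of 237 regions, 2.11% and 10.1%. Il1rl1, the IL-33 receptor gene, had 3 and 0, in that order. Cd83, an activation marker that B cells also carry, had 0 and 6, Swap70, known from B cells, 0 and 5, and Klrg1, a receptor of effector cells, and Socs2, a brake on cytokine signalling, 0 and 3 each. Ccr4, a chemokine receptor, had 0 and 1. Of 24 transcription factors of regulatory T cells or of Foxp3 control, 6 had more KO-only and 13 more WT-only regions, and the list held 23 and 60 of 533 regions, 4.32% and 11.3%. The largest differences were at Ets1, with 0 KO-only and 10 WT-only regions, Foxo1 with 0 and 6, and Bach2 with 5 and 11. Nfatc2, Rel and Smad3, factors known to act at Foxp3, had 0 and 3 each. These shares stood near or above the 1.78% and 8.80% of all regions. Among shared regions of the 2 lists, both KO percentiles were above both WT at 26.9% and 26.9%, and both WT above both KO at 19.4% and 19.3%.

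Partners, ligands and receptors of the members had 3 KO-only and 17 WT-only of 184 regions, 1.63% and 9.24%, with 2 genes of 20 having more KO-only and 8 more WT-only regions. Nrp2, the paralog of Nrp1, had none of the first and 6 of the second kind among 13 regions, with a peak at 1 and 3 in KO-1 and KO-2, against 8 and 13 in WT-1 and WT-2. Plxna1, a semaphorin receptor that pairs with neuropilins, had 0 and 3, Il10ra, which encodes the ligand-binding chain of the IL-10 receptor, 0 and 2, and its partner chain gene Il10rb 0 and 1. Itgb8, whose integrin frees TGF-beta, had 0 and 1, and Il6st, the shared receptor chain of the IL-6 family, had 1 and 0. Of 17 genes near the members on the chromosome, 15 had a region, and the list held 0 KO-only and 7 WT-only of 67 regions, 0% and 10.4% where 1.78% and 8.80% of all regions were so called. Of the 7, 2 were at Mapkapk2 above Il10, 2 at Tsku, and 1 each at Capn5, at Itgb1 above Nrp1 and at Sh2d6 below Capg.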

How the data were processed

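Each of the 4 libraries had its own deposited peak list without a header, in the narrow peak layout of 10 columns. The tools named per the submitters' processing notes are MACS2, BWA, Picard, SAMtools and deepTools, and the build is GRCm38 (mm10). For versions, settings, filters and any transposase shift, the sources used here give nothing. Fold enrichment, as deposited, sets a peak against its library's background as a ratio, and the deposited −log10 p and −log10 q rank a peak against it; every −log10 q was 2 or more. These values are the authors' own and describe peaks within a list, so percentiles were not tested as change. Depth is unknown. Replicates were not pooled in the lists.

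Peaks overlapping by at least 1 bp were merged, and each region went to the nearest protein-coding gene of a RefSeq table (GRCm38.p6) within 100 kb of its midpoint, with ties kept. A region's value is its strongest peak. Positions are 1-based, and exon or intron positions were not used here. Counts per library were compared by exact two-sided permutation over libraries, without adjustment, for 8 genes and their sum. Merging and assignment were tested on simulated data. The members, gene lists and tests were chosen with earlier results of these data known. Named were all 8 genes, their genotype-specific regions, and up to 6 genes of a list (4 of a marker list) by the difference of the counts. Single regions beyond these, such as that in Cacna1f, were picked with their values in view. The marker lists of CD8 T cells (0 KO-only and 0 WT-only of 6 regions), natural killer cells (0 and 3 of 20) and melanocytes (0 and 0 of 22) were also counted. Alternatives covered peak strength, list length, overlap, assignment distance, each library left out and a replicate block. Python 3.11, numpy and pandas were used.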

Additional observations from a re-analysis of the deposited data

How the results depend on the processing

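The difference in regions with a peak over the 8 genes, KO minus WT, was 0.5 and changed sign under several settings. It was −1.5 with peaks at a −log10 q of at least 5, −1 at 10 and −2.5 with every region within 20 kb of a gene, 7 with equal lists, and −10.5 to 11.5 with 1 library left out. KO-only regions (4) numbered 1 at a −log10 q of at least 5 and 3 at 10. Peaks were merged anew at each threshold, so these need not be among the 4. WT-only regions (4) numbered 2 at a −log10 q of at least 5, 2 with lists of equal length and 2 within 20 kb. Regions open in all 4 libraries (35) numbered 14 at a −log10 q of at least 10. Leaving out a library loosens both classes: KO-only regions then ranged from 4 to 17 and WT-only regions from 4 to 13. The difference between the mean KO and mean WT per-library median percentile of the shared regions, 3.05, ranged from −1.92 to 6.96 without 1 library. It was 5.99 and 4.23 at a −log10 q of at least 5 and 10, 5.05 with equal lists, 7.19 for nearest genes within 20 kb, 5.04 for every region within 20 kb, 6.81 by −log10 q and 6.11 by rank among shared regions, and in each of these both KO medians lay above both WT medians (exact permutation p = 0.333). The Il10 difference, −1.5, ranged from −4 to 1, and the Nrp1 difference, 4, from −1 to 9. Replicate numbers do not pair the samples by label; deviations of same-numbered libraries correlated at 0.0173 over 26867 shared regions, and the replicate block left each difference as it was, 0.5 over the 8 genes. No p could fall below 0.33, so these tests say nothing about stability. Of the alternative values, 8 changed sign and 10 counts moved by more than 1.5 times. Some differences went to 0: that of Foxp3 (1) at a −log10 q of at least 5 or 10 and without KO-2, and that over the 8 genes when an overlap of 50% was asked. Those of Ebi3 and Capg (−0.5 each) were 0 at a −log10 q of at least 10. Unknown depth limits what an absent peak shows.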
